A study of Mus musculus with 73 samples.

Results

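The genes described here encode the machinery that copies DNA. The members were 40 named genes of 39438 rows in the count table, and all 40 have a row. They were placed in 6 subsets by role: 12 genes of the replicative helicase, 6 of origin licensing, 9 of the DNA polymerases and primase, 6 of the sliding clamp and its loader, 4 that handle single strands and join fragments, and 3 that make DNA precursors. Bulk RNA of 73 mouse mammary tumours was sequenced, 1 library per tumour, in 8 groups by genotype, histology and title. Tumours with the genotype KB1(L1363P)P, called L1363P here, comprised 3 adenocarcinomas, 9 carcinosarcomas and 9 sarcomatoid tumours, and tumours of the KP genotype comprised 5 adenocarcinomas and 3 carcinosarcomas. These 29 libraries share sequencing run 5625. The other 44 libraries are adenocarcinomas from other runs: 11 titled KB1P and 10 titled KB1PM, both with the genotype label KB1P, and 23 of the genotype KB2P. In this family of mouse models, K stands for a Cre recombinase driven by the keratin 14 promoter, P for floxed p53, and B1 and B2 for floxed Brca1 and Brca2, so loss of p53 is common to all groups, the KP controls included. L1363P is an amino acid change in Brca1, and the labels used here give neither the age of the mice nor the meaning of the M in KB1PM.

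Before a cell divides, the origin recognition complex, Cdc6 and Cdt1 load the ring of Mcm2 to Mcm7 onto origins, and Cdc45 and the GINS proteins turn this ring into the active helicase. Polymerase alpha with primase starts each strand, polymerase epsilon extends the leading and polymerase delta the lagging strand, and both are tethered by the PCNA clamp that replication factor C loads. RPA coats single-stranded DNA, Fen1 and ligase 1 finish the lagging strand, and ribonucleotide reductase and thymidylate synthase supply precursors. Many of these genes are textbook targets of the E2F factors, which are held back by the retinoblastoma protein until cells commit to S phase, so their messenger RNAs are widely read as a measure of proliferation.

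The promoters show what the members share in sequence beside their function. RefSeq promoters of the assembly GRCm38.p6 were matched by symbol for 32 of the 40 members, and the 250 bases before the annotated start were searched on both strands for the E2F letters TTTCCCGC, TTTCGCGC, TTTGCCGC and TTTGGCGC and for CCAAT. Matches of the E2F set can overlap on opposite strands, and each was counted. An E2F match occurred in at least 1 promoter of 8 of 32 members (25%), against 2.16% of the 27025 genes in the table. A CCAAT match occurred in 65.62% of the members and 37.49% of all genes, and both together in 21.88% and 0.87%. The promoters below contrast 3 genes that hold both motifs with 3 genes that led the comparisons and hold no E2F match. These genes were chosen with the results known, and other called genes do hold E2F matches. Mcm6 and Mcm7, both called in sarcomatoid tumours against adenocarcinomas, are among them. Matched letters are in capitals. Mcm6 (chr1:128359706-128359955, minus strand) has 3 E2F matches and 2 CCAAT boxes, Mcm5 (chr8:75109259-75109508, plus strand) has 2 and 2, and Pola1 (chrX:93632156-93632405, minus strand) has 1 of each. Mcm2 (chr6:88898781-88899030, minus strand) has 1 CCAAT box, while Pold1 (chr7:44548816-44549065, minus strand) and Pole2 (chr12:69228191-69228440, minus strand) have neither.
Mcm6: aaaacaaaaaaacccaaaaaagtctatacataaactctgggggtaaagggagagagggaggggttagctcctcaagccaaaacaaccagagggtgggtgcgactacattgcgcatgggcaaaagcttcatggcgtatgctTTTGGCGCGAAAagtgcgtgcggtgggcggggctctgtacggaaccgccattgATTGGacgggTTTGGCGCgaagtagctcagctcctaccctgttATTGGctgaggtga
Mcm5: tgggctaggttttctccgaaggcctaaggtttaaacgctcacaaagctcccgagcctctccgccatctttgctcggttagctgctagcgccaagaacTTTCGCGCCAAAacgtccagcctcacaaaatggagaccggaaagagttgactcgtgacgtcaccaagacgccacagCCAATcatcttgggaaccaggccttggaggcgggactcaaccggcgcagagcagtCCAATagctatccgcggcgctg
Pola1: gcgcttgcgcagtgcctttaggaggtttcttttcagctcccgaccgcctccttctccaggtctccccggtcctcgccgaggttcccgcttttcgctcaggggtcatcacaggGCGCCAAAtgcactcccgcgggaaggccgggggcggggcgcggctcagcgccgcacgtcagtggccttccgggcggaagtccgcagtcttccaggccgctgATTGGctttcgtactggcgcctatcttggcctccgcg
Mcm2: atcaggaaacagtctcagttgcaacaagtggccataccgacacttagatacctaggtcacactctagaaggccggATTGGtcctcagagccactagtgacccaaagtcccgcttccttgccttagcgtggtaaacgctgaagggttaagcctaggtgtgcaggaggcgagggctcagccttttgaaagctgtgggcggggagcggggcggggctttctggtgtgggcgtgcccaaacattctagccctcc
Pold1: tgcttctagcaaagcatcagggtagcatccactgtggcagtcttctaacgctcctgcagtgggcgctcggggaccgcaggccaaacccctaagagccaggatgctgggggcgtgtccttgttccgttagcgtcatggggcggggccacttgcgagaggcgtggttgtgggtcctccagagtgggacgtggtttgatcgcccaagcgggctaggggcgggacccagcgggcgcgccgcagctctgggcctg
Pole2: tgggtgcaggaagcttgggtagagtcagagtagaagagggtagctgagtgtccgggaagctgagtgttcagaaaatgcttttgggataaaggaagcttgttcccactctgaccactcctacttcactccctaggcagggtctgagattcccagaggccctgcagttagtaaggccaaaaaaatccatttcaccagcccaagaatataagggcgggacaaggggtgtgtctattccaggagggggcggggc
A match describes these letters in this window and is not evidence of binding, and the absence of a match says only that these letters are not in it.

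Library totals in run 5625 lay between 13103749 and 17550129 counts, and those of the other runs between 7325180 and 31615237. The labelled share of epithelial tumour was 2 to 98% in L1363P carcinosarcomas, 80 to 90% in KP carcinosarcomas and 0% in sarcomatoid tumours. The summed level of 10 epithelial markers was low in 3 tumours labelled adenocarcinoma: KP 90.01A, at 250.7 CPM (counts relative to the scaled library total) against a group median of 4193 CPM, KB1PM 8, at 174.0 CPM, and KB2P 30, at 16.06 CPM. No marker of the epithelial, mesenchymal or macrophage lists was at 0 in a whole group. The targeted genes were detected in every library: median Brca1 lay between 24.4 and 80.8 CPM, median Trp53 between 19.2 and 30.8 CPM, and median Brca2 was 44.6 CPM in KB2P tumours. Counts over a whole gene do not check a deletion of some exons or a single changed codon. No label states that each tumour came from its own mouse, and tumours 54.1 and 54.2 share a number. The p-values therefore cover the spread among these libraries, part of which may be technical.

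Levels of the members were read first as a score, the mean over the 40 genes of log2 CPM, each gene centred on the 29 tumours of run 5625. L1363P adenocarcinomas 7.2, 26.2 and 52 had scores of 0.117, 0.665 and 0.687, a mean of 0.49 ± 0.323 (SD, n = 3). KP adenocarcinomas had the lowest mean, -0.31 ± 0.388 (n = 5), and ran from -0.736 in tumour 40 to 0.178 in tumour 131.03A, so the highest of them lay above the lowest L1363P adenocarcinoma. L1363P carcinosarcomas averaged -0.0629 ± 0.342 (n = 9), with tumour 18 at -0.893 and the other 8 between -0.24 and 0.183. Sarcomatoid tumours were the most uniform group in this score, at 0.0223 ± 0.138 (n = 9), from -0.191 to 0.3. KP carcinosarcomas averaged 0.149 ± 0.254 (n = 3), KB1P 0.33 ± 0.314 (n = 11), KB1PM 0.131 ± 0.245 (n = 10) and KB2P adenocarcinomas 0.327 ± 0.286 (n = 23). In the order of the means, from L1363P adenocarcinoma down through KB1P, KB2P, KP carcinosarcoma, KB1PM, sarcomatoid and L1363P carcinosarcoma to KP adenocarcinoma, every pair of neighbours differed by less than the SD of at least 1 of them. The KB1P, KB1PM and KB2P tumours come from other runs, so genotype and run are mixed in their place in this order. In bulk RNA, fewer cells of a kind and less RNA per cell cannot be told apart, so a low score may be either.

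**Figure D1:**
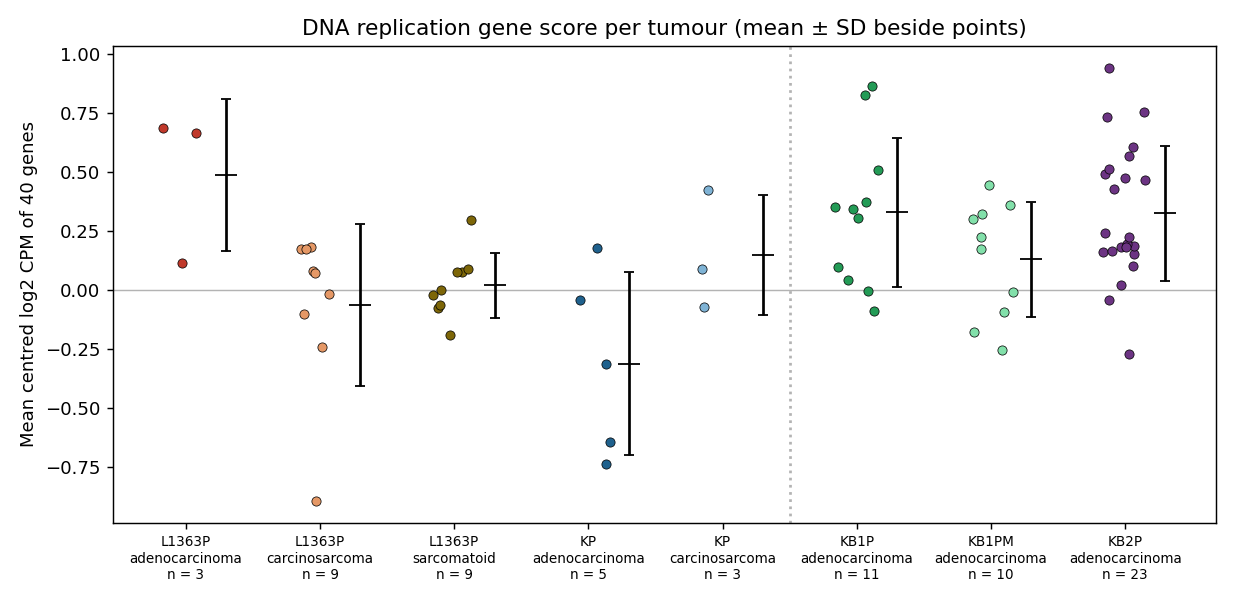
Score of the 40 replication genes (mean centred log2 CPM, y axis) in each of 73 tumours by group (x axis); points are tumours, bars mean ± SD, and the dotted line separates run 5625 on the left from the other runs. L1363P adenocarcinomas averaged 0.49 and KP adenocarcinomas -0.31, and carcinosarcoma 18 lies lowest at -0.893.

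Per kilobase of annotated exon, levels of members with different roles differed widely in run 5625. The length merges the exons of all annotated transcripts of a gene and can exceed that of any 1 transcript. Part of a difference per kb can therefore come from the length. The ring subunits Mcm4 and Mcm6 averaged 43.41 and 43.63 CPM per kb and the clamp Pcna 44.59 CPM per kb. Mcm2, a subunit of the same ring, averaged 15.96 CPM per kb, and Mcm10, which helps the helicase fire, 4.849 CPM per kb. Before division by length Mcm2 and Mcm4 were closer, at 111.0 CPM over 6.956 kb and 155.8 CPM over 3.589 kb. Levels of the catalytic subunits of the leading and lagging strand polymerases, Pole and Pold1, were 5.805 and 6.317 CPM per kb, and the delta subunit Pold2 stood at 23.92 CPM per kb. Rfc1, the large subunit of the clamp loader, averaged 21.18, Rpa1 23.2, Rrm1 21.79 and Rrm2 25.57 CPM per kb, and Orc1, the largest origin recognition subunit, 3.698 CPM per kb. Fen1, the flap endonuclease, was at 0.5317 CPM per kb, and 84.2% of its annotated exon bases lie antisense to Gm10143 or Tmem258. Overlap also makes Gins2 uncertain (67.3% antisense to Gse1), Orc2 (29.8%, Nif3l1) and Rfc2 (15.1%, Lat2), because the use of strand in the authors' counting is not stated in the labels or notes used here. Smaller antisense shares are annotated for other members, the largest for Rfc4 (12.7%, Eif4a2), Orc1 (10.8%, Gm12743), Rfc5 (10.7%, Wsb2) and Mcm7 (8.7%, Cops6 and Ap4m1). Processed copies are annotated for Pcna and Tyms, whose reads could be split with them.

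Genotype was compared within 1 histology and run between L1363P and KP adenocarcinomas. Pole2, Pold1 and Pcna rose in the L1363P tumours, and the fitted difference was positive for 40 of 40 members. By edgeR's quasi-likelihood test with Benjamini-Hochberg adjustment over 16147 genes at 0.05, 3 of 40 members were called, against 0.211% of all genes, and 27 had an unadjusted p under 0.05. Counts of signs and counts at an unadjusted p, here and below, are not set beside the share of all genes. They describe the members only. The median log2 fold change of the members was 0.867, that of all genes -0.0374.

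Pole2, the second subunit of polymerase epsilon (chr12:69201773-69228195, minus strand, GRCm38), was at 22.74, 24.14 and 56.42 CPM in L1363P adenocarcinomas and at 10.21 to 14.91 CPM (median 11.54) in the 5 KP adenocarcinomas. The groups did not overlap, with tumour 26.2 far above the rest. Its log2 fold change was 1.52 (SE 0.265, edgeR adjusted p = 0.019), or 0.97 without tumour 26.2, where the call was lost (edgeR adjusted p = 0.168), and 8.5% of its exon bases are shared with Gm49384 on the same strand. Pold1, the catalytic subunit of polymerase delta (chr7:44532746-44548849, minus strand), stood at 41.89, 44.31 and 69.97 CPM against 13.23, 16.23, 19.69, 24.46 and 32.64 CPM. Here too each L1363P tumour lay above each KP tumour, by 1.29 on the log2 scale (SE 0.244, edgeR adjusted p = 0.0284). Pcna, the clamp (chr2:132249162-132253314, minus strand), was at 120.4, 157.3 and 212.0 CPM against 71.49 to 107.3 CPM (median 76.81), again without overlap. Its log2 fold change was 0.97 (SE 0.208, edgeR adjusted p = 0.0445). Across the alternative settings and tumours left out, the Pcna call was lost in 10 and kept in 4. The Pole2 call was lost in 3 and kept in 11.

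Helicase members had a median log2 fold change of 1.0, polymerase members 0.871, clamp members 0.757, origin members 0.695, strand members 0.603 and precursor members 0.52. Mcm6, the most abundant helicase member in CPM (chr1:128331590-128359664, minus strand), was at 247.2, 360.5 and 411.4 CPM against 68.79, 130.8, 142.8, 145.0 and 342.6 CPM. KP tumour 131.03A overlapped the L1363P range, and the log2 fold change of 1.04 (SE 0.336) did not pass (edgeR adjusted p = 0.169). Pole, the catalytic subunit of polymerase epsilon, did not overlap between the groups (82.18 to 117.3 against 35.16 to 67.35 CPM), yet its 0.94 missed the threshold as well (edgeR adjusted p = 0.117). Orc2 (0.32), Rpa1 (0.36), Rrm1 (0.25) and Rfc1 (0.13) differed by less, with edgeR adjusted p between 0.468 and 0.855. The other lists of the pathway gave few calls: Chtf18, a subunit of an alternative clamp loader, was 1 of 21 other replisome genes to pass (log2 fold change 1.20). Of 17 mitosis genes none passed in edgeR, 12 had an unadjusted p under 0.05 and 17 were positive (median 0.808), and E2F and retinoblastoma family genes had a median of 0.238.

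The count rested on single tumours. It was 14 without KP tumour 131.03A, 10 without L1363P tumour 7.2, and 1 without L1363P tumour 26.2 or 52 or KP tumour 39 or 40. It was 2 without KP tumour 89.01A or 90.01A, and 0 of 40 were called when carcinosarcomas 17 and 4 were removed together with 90.01A, where the median was 0.937 and 27 members had an unadjusted p under 0.05. Mesenchymal markers moved with the groups: their summed level was 2388 to 4856 CPM in L1363P and 4531 to 26940 CPM in KP adenocarcinomas, and macrophage markers summed to 627.6 to 1130 CPM and 528.5 to 9351 CPM. Of 10 mesenchymal markers 0 were called and 8 had p under 0.05, all 10 lower in L1363P. Endothelial markers summed to 107.2 to 214.6 CPM in L1363P and 166.4 to 552.9 CPM in KP adenocarcinomas. The lowest KP value was that of tumour 131.03A, and the next was 469.8 CPM in tumour 89.01A. The part of these other cells in the result was not tested.

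**Figure D2:**
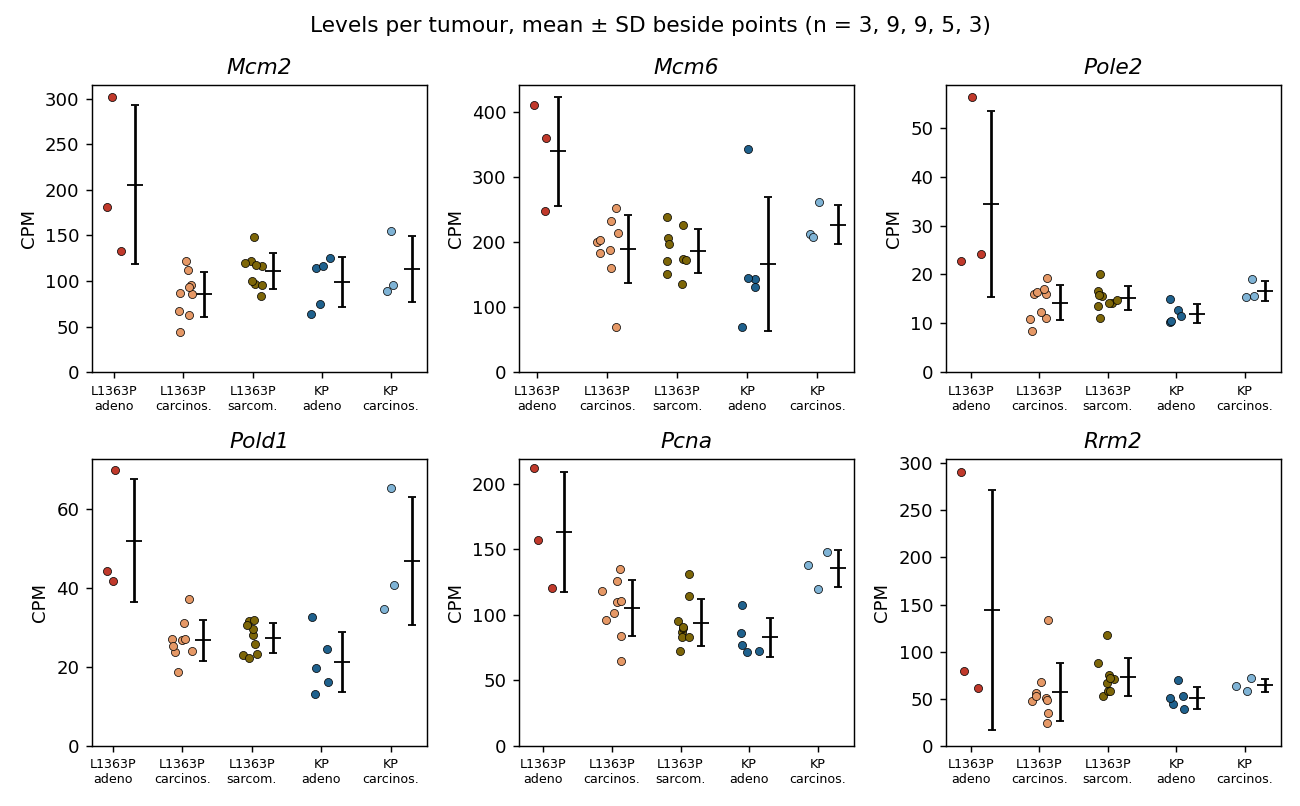
CPM (y axes) of 6 members in the 29 tumours of run 5625 by group (x axes); points are tumours and bars mean ± SD. L1363P adenocarcinomas lie above all 5 KP adenocarcinomas for Mcm2, Pole2, Pold1 and Pcna, while Rrm2 in this group is set by tumour 26.2 at 291.1 CPM.

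Histology was compared within L1363P. The following 2 comparisons share the 3 adenocarcinomas as the reference, which are also those of the genotype comparison above, so they are given side by side without a measure of likeness between them. In sarcomatoid tumours 14 of 40 members fell and 0 rose, with 30.6% of all 16147 genes called (1959 higher, 2986 lower), and the median log2 fold change was -0.563 for the members and -0.0914 for all genes. The count of members there is near the share of all genes and is not a result about them. In carcinosarcomas 5 of 40 fell and 0 rose, with 2.70% of all genes called, and the medians were -0.578 and 0.00645. In each comparison 37 of 40 fitted differences were negative, and 21 and 22 members had an unadjusted p under 0.05. Genes called at the adjusted threshold also lie under the unadjusted one, so in sarcomatoid tumours at least 30.6% of all genes did.

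Among helicase genes, Mcm7 had the smallest p in sarcomatoid tumours. Levels were 140.3, 283.9 and 299.1 CPM in adenocarcinomas and 96.66 to 137.7 CPM (median 108.5) in the 9 sarcomatoid tumours, without overlap. The log2 fold change was -1.12 (SE 0.31, edgeR adjusted p = 0.00868). Mcm6 also fell without overlap, from the 3 values above to 135.6 to 238.0 CPM (median 173.7), by -0.88 (edgeR adjusted p = 0.0278). Mcm2 (-0.89), Mcm3 (-0.84), Mcm10 (-0.92) and Gins1 (-0.93), a GINS subunit, made up the rest of the 6 of 12 helicase genes that fell. In carcinosarcomas 2 of 12 fell. Mcm2 was at 44.12 to 122.1 CPM (median 86.29) against 133.2, 181.4 and 302.5 CPM, without overlap, and its log2 fold change was -1.26 (SE 0.245, edgeR adjusted p = 0.00635). Mcm4 fell by 0.87 on the log2 scale. Mcm7 did not pass there, and carcinosarcoma 6, at 350.5 CPM, exceeded all adenocarcinomas.

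Polymerase genes gave 5 of 9 calls in sarcomatoid tumours and 2 of 9 in carcinosarcomas. Pole2 had the smallest p of this subset in both. It stood at 11.06 to 20.15 CPM (median 14.81) in sarcomatoid tumours and 8.496 to 19.3 CPM (median 15.95) in carcinosarcomas, below each of the 3 adenocarcinomas. Its log2 fold changes were -1.19 (SE 0.233, edgeR adjusted p = 0.000743) and -1.27 (SE 0.233, edgeR adjusted p = 0.00416). Both rested on adenocarcinoma 26.2: without it they were -0.64 (edgeR adjusted p = 0.0604) and -0.72 (edgeR adjusted p = 0.221), and neither call held. Pold1 did not overlap either, at 22.26 to 31.98 CPM and 18.64 to 37.11 CPM, and fell by 0.93 and 0.95 on the log2 scale. Sarcomatoid tumours also had lower Pold2 (-0.90), Prim1 (-0.88), the catalytic primase subunit, and Pola2 (-0.58), while Pole at -0.61 missed the threshold (edgeR adjusted p = 0.0512).

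In the remaining subsets 1 clamp gene, 1 strand gene and 1 precursor gene fell in sarcomatoid tumours, and edgeR called no origin gene in either comparison, with 1 of 6 at an unadjusted p under 0.05 in each. Pcna was at 72.07 to 131.6 CPM (median 89.82), with 8 of 9 sarcomatoid tumours below all adenocarcinomas, a log2 fold change of -0.80 (SE 0.186, edgeR adjusted p = 0.00282). Rpa2, a subunit of the single-strand binding complex, was at 27.55 to 48.07 CPM (median 36.46) against 49.41, 64.6 and 67.54 CPM, without overlap (-0.71, SE 0.241, edgeR adjusted p = 0.0269). Rrm2, the regulated subunit of ribonucleotide reductase, was at 61.29, 79.76 and 291.1 CPM in adenocarcinomas, at 52.61 to 117.4 CPM (median 70.61) in sarcomatoid tumours and at 24.49 to 133.1 CPM (median 50.4) in carcinosarcomas. The fitted log2 fold changes were -0.98 (SE 0.364, edgeR adjusted p = 0.0414) and -1.32 (SE 0.359, edgeR adjusted p = 0.0429), but the groups overlapped. Without tumour 26.2 they were 0.04 (edgeR adjusted p = 0.948) and -0.30 (edgeR adjusted p = 0.785). Orc2 (-0.12), Rfc1 (-0.06), Rpa1 (-0.32) and Rrm1 (0.18), the large reductase subunit, did not pass in sarcomatoid tumours, and Gins2 at 0.50 was the highest of the 40 values.

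The other genes of the pathway are read against the same shares of all genes, 30.6% called in sarcomatoid tumours and 2.70% in carcinosarcomas. In sarcomatoid tumours, 7 of 21 other replisome genes fell, among them Rpa3 (-0.94), and 1 rose, 3 of 12 firing genes fell, among them Ticrr (-1.28), and 3 of 10 chromatin assembly genes fell, among them Uhrf1 (-1.02). Of 10 other precursor genes 2 fell, Shmt1 (-1.32) and Dtymk (-0.85), and the fitted differences were positive for 5 and negative for 5. Of 14 E2F and retinoblastoma family genes 4 fell, including E2f2 (-1.72), an activating E2F, and Mybl2 (-0.98), and 1 rose, E2f4 (0.83), which acts largely in repression. Of 17 mitosis genes 7 fell, among them Cdk1 (-1.30), the mitotic kinase, and Nusap1 (-1.42). These shares, from 2 of 10 to 7 of 17, lie on both sides of the 30.6% of all genes. In carcinosarcomas the calls were E2f2 (-1.48), Chtf18 (-1.15) and Recql4 (-1.05), a helicase needed for origin firing, and no mitosis gene passed (7 of 17 had an unadjusted p under 0.05).

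These counts depend on the 3 adenocarcinomas. Without tumour 26.2, sarcomatoid tumours had 5 calls (Pcna, Rpa2, Pold1, Pold2 and Pold3) and carcinosarcomas 1 (Pold1). Without tumour 52 they had 6 (Mcm2, Mcm7, Prim1, Rrm2 and Pole2, and Orc6, which was higher) and 3. Without tumour 7.2 there were 15 and 7. Epithelial markers moved with histology: all 10 fell in sarcomatoid tumours, whose summed level was 67.21 to 475.9 CPM against 3079 to 9176 CPM in adenocarcinomas. In the same tumours 9 of 10 mesenchymal and 8 of 8 macrophage markers rose, with summed levels of 23060 to 53130 CPM against 2388 to 4856 CPM and of 3683 to 7103 CPM against 627.6 to 1130 CPM. All 5 endothelial markers rose too, to a summed 290.2 to 820.7 CPM from 107.2 to 214.6 CPM, and 1 of 4 adipocyte markers fell (4 of 4 negative, 5.896 to 116.4 CPM against 21.92, 169.9 and 3933 CPM, the last in adenocarcinoma 52). In carcinosarcomas 1 of 10 epithelial markers fell, 1 of 10 mesenchymal markers rose and 0 of 8 macrophage and 0 of 5 endothelial markers passed, and 1 of 4 adipocyte markers fell. The part of these other cells in the lower levels of the members was not tested.

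**Figure D3:**
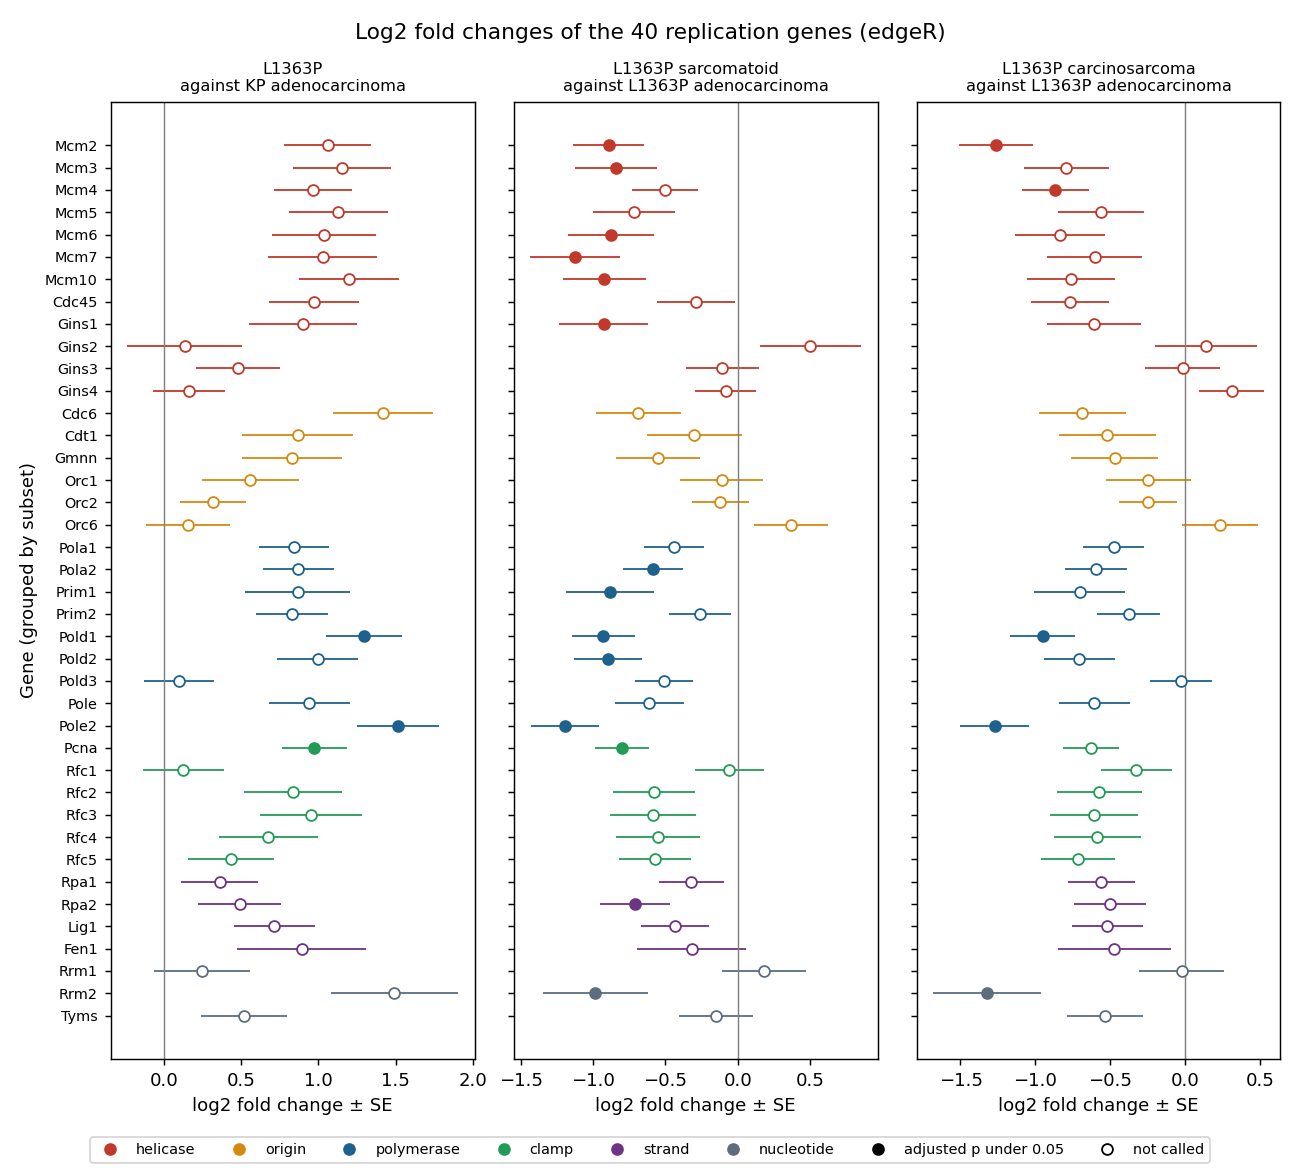
Log2 fold change ± SE (x axes) of each member (y axis, coloured by subset) in 3 edgeR comparisons of run 5625 that share the 3 L1363P adenocarcinomas; filled points passed an adjusted p of 0.05. The left panel has 3 filled points, all positive, the middle 14 and the right 5, all negative.

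Sarcomatoid tumours and carcinosarcomas of L1363P differed little in these genes. By edgeR 1 of 40 members was called, with 21.5% of all genes called, and 6 members had an unadjusted p under 0.05. The median was 0.0276 for the members and -0.0428 for all genes. The 1 gene was Pold3, an accessory subunit of polymerase delta (chr7:100082111-100121565, minus strand), at 36.47 to 51.14 CPM (median 41.4) in sarcomatoid tumours and 44.76 to 78.89 CPM (median 60.92) in carcinosarcomas. The ranges overlapped, and its log2 fold change was -0.48 (SE 0.146, edgeR adjusted p = 0.0214). Without the carcinosarcomas of the lowest labelled epithelial share, 17 and 4, and KP tumour 90.01A, 4 members were called, of which Tyms (0.51), Gins2 (0.77) and Cdc45 (0.57) were higher in sarcomatoid tumours. Without carcinosarcoma 18 there were 2 calls.

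In KP tumours, carcinosarcomas against adenocarcinomas gave 0 of 40 calls by edgeR, as for all genes, of which 0.00% were called. Unadjusted, 9 members had p under 0.05; DESeq2 called 1 member and limma 0. The fitted difference was positive for 35 of 40 members, with a median of 0.386 against -0.108 for all genes, and the clamp subset had a median of -0.0904. Pold1 was at 34.57, 40.7 and 65.33 CPM in the carcinosarcomas, above the 5 adenocarcinomas, and Pcna at 119.8, 138.4 and 148.3 CPM was above them too. Their log2 differences were 1.14 (edgeR adjusted p = 0.17) and 0.71 (edgeR adjusted p = 0.325).

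The effect of histology, carcinosarcoma against adenocarcinoma, was then compared between the genotypes. The difference of the effects was negative for 40 of 40 members, with a median of -0.867 against 0.122 for all genes, and 22 members had an unadjusted p under 0.05. Pold1 was the 1 member called, with 0.0124% of all genes called: Pold1 fell by 0.95 on the log2 scale in L1363P and was 1.14 higher in KP carcinosarcomas, a difference of -2.09 (SE 0.327, edgeR adjusted p = 0.0131). Mcm6 (-1.29), Pole2 (-1.74), Pcna (-1.33) and Rrm2 (-1.66) did not pass, with edgeR adjusted p between 0.118 and 0.228. The call was lost without KP carcinosarcoma 5 (edgeR adjusted p = 0.0795), and the number of calls reached 6 without KP adenocarcinoma 131.03A, 3 without L1363P adenocarcinoma 7.2 and 2 without 52. All 4 groups enter this value, so the KP and L1363P adenocarcinomas that set the genotype comparison also set it.

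Within run 5625 the subsets moved largely together across the 29 tumours, which share a run and a scaling. As a description, the score of all 40 members correlated with that of the helicase subset at r = 0.986, polymerase 0.958, strand 0.938, origin 0.911, clamp 0.87 and precursor 0.818, each of which is part of the whole. Among single genes against the mean of the other 39, Mcm3 stood highest (r = 0.96), followed by Mcm4 (0.91), Mcm5 (0.897) and Cdc6 (0.889), the loader of the helicase ring. The loosest were Gins2 (0.198), Pold3 (0.332), Orc6 (0.375) and Rfc1 (0.42).

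The subsets did not stand in the same relation in every group. In sarcomatoid tumours origin genes scored 0.11 and precursor genes 0.187 on average, while helicase genes scored 0.00207 and polymerase genes -0.0581. The origin score minus the polymerase score was 0.168 ± 0.144 (SD, n = 9) there, 0.0118 ± 0.16 (n = 9) in L1363P carcinosarcomas and -0.302 ± 0.273 (n = 3) in L1363P adenocarcinomas. The precursor score minus the polymerase score was 0.245 ± 0.185 in sarcomatoid tumours and -0.162 ± 0.265 in carcinosarcomas. In KP carcinosarcomas the clamp score lay 0.234 below the polymerase score (difference -0.234 ± 0.0941, n = 3), and in KP adenocarcinomas it lay above (0.124 ± 0.245, n = 5). The subset differences were not tested.

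**Figure D4:**
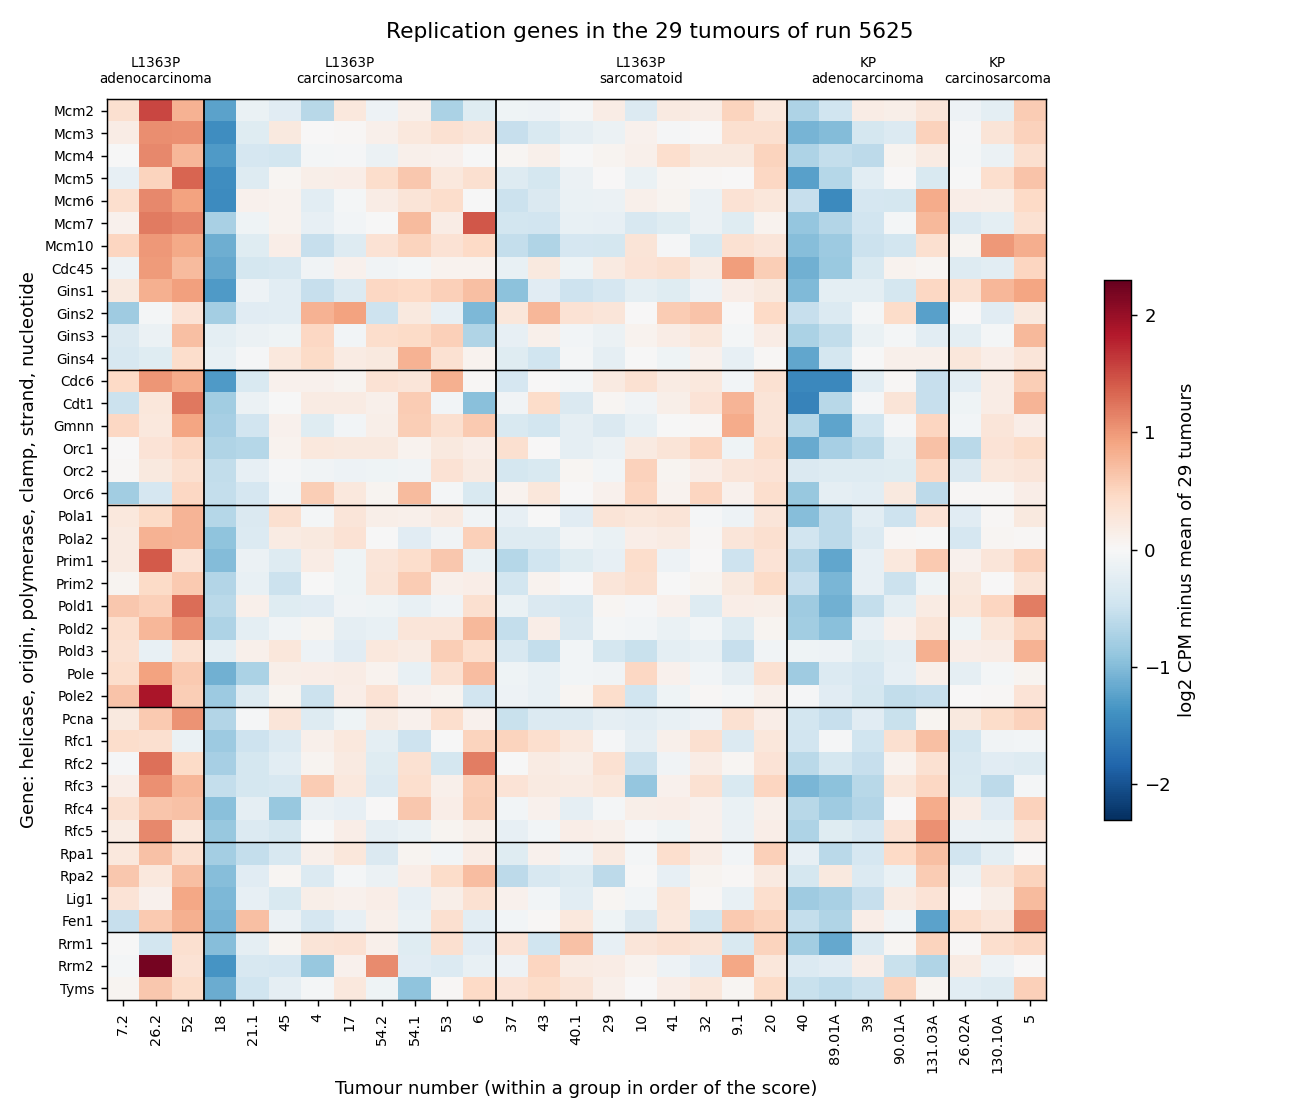
Each of the 40 members (rows, by subset) in each tumour of run 5625 (columns, by group), coloured by log2 CPM minus the mean of the 29 tumours. L1363P tumours 26.2 and 52 are high and carcinosarcoma 18 and KP tumours 40 and 89.01A are low across most rows, while Gins2 and Orc6 are not high in tumour 26.2.

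The labelled share of epithelial tumour was set against the members within the 9 L1363P carcinosarcomas. By edgeR 0 of 40 members were called for a slope per 10 percentage points, with 8.34% of 14645 genes called, and 3 members had an unadjusted p under 0.05. DESeq2 and limma also called 0. The median slope was 0.0208 log2 units per 10 points for the members and 0.0102 for all genes. In order of the label, tumours with 2, 5 and 40% had scores of -0.0175, 0.0719 and -0.893, and those with 75, 85, 85, 90, 95 and 98% had 0.08, 0.177, -0.101, 0.174, 0.183 and -0.24. Without tumour 18, the one at 40%, Gins2 was called with a slope of -0.14. Without tumours 17 and 4, the members' median slope was 0.177, 13 members had an unadjusted p under 0.05 and 0 were called by edgeR. Tumour 18 was then the only one below 75%, and that slope rested on it: without 18 as well, the median was -0.0375, 1 member had an unadjusted p under 0.05 and 0 were called. Of 17 mitosis genes, Nusap1 (0.16) and Cenpf (0.14) rose with the epithelial share, and all 17 slopes were positive.

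Tumour 18 was the lowest L1363P carcinosarcoma in all 6 subsets. Its helicase score was -1.03, with the next carcinosarcoma at -0.193, and its strand score was -0.967, with the next at -0.206. Its precursor score was -1.15, its origin score -0.781, its clamp score -0.774 and its polymerase score -0.749. Mcm4 was at 59.9 CPM there against 111.3 to 161.6 CPM in the other 8. The mitosis score of tumour 18 was also the lowest of run 5625, at -1.06.

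**Figure D5:**
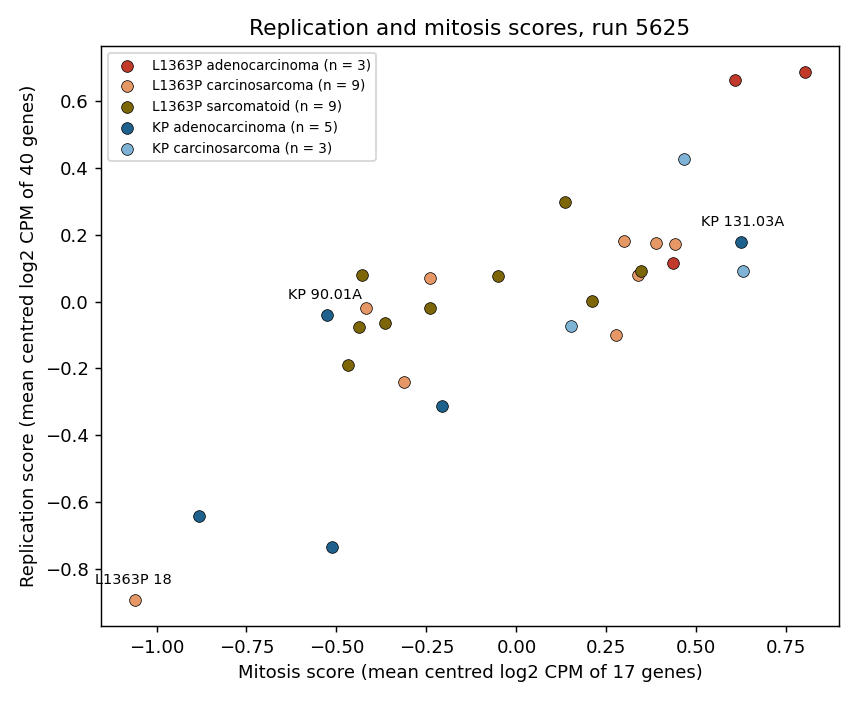
Replication score (40 genes, y axis) against mitosis score (17 genes, x axis), both mean centred log2 CPM, in the 29 tumours of run 5625, coloured by group. Tumours rise together on both axes, from carcinosarcoma 18 at the lower left to L1363P adenocarcinoma 52 at the upper right.

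Across the 29 tumours, which share a run, the replication score and the mitosis score had r = 0.805 and rho = 0.809. The polymerase subset followed mitosis most closely (r = 0.865) and the clamp (0.595) and precursor (0.553) subsets least. The score of E2F and retinoblastoma family genes had r = 0.638 with the replication score, that of epithelial markers 0.0177, of mesenchymal markers -0.263 and of macrophage markers -0.0712. KP adenocarcinoma 90.01A, whose epithelial markers were low, was low in mitosis and near the middle in replication. These values describe 29 tumours in 5 groups and carry no test.

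Adenocarcinomas of the other genotypes were sequenced in other runs, so genotype and run cannot be told apart below. Between KB2P and KB1P, 5 of 40 members rose in KB2P and 0 fell, with 13.2% of 18492 genes called, and the medians were 0.115 for the members and 0.0433 for all genes. The count of members is near the share of all genes and is not a result about them. Pold2, a delta subunit, was at 43.37 to 199.1 CPM (median 98.43) in KB2P, 52.97 to 125.5 CPM (median 65.85) in KB1P and 49.98 to 102.0 CPM (median 61.62) in KB1PM tumours. The ranges overlapped widely, with 6 of 23 KB2P tumours above all 21 others, and the log2 fold change was 0.55 (SE 0.138, edgeR adjusted p = 0.00403). Rfc3 (0.44, edgeR adjusted p = 0.0173) and Rfc2 (0.39), both small clamp loader subunits, Rpa2 (0.41, edgeR adjusted p = 0.0251) and Gins3 (0.32, edgeR adjusted p = 0.0487) rose as well. Of 17 mitosis genes 5 rose, among them Cdk1 (0.81) and Aurka (0.51), and of 12 firing genes 3 rose, among them Ccne1 (0.67), the cyclin that opens S phase. Against tumours titled KB1P alone, the 1 member called was Pcna, lower in KB2P by 0.46 on the log2 scale.

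L1363P adenocarcinomas had 2 members higher and 1 lower than KB1P, with 5.00% of all genes called, and 2 higher and 1 lower than KB2P, with 9.10% called. These counts are near the shares of all genes and are not results about the members. The L1363P tumours of both comparisons are those of the comparisons above. Pcna rose in both, at 163.2 ± 46.12 CPM (n = 3) against 94.23 ± 33.19 CPM (n = 21) and 82.2 ± 18.82 CPM (n = 23). Each L1363P tumour lay above all KB2P tumours, and 1 lay above all KB1P tumours. The log2 fold changes were 0.84 (SE 0.194, edgeR adjusted p = 0.00279) and 0.99 (SE 0.19, edgeR adjusted p = 0.000145). Mcm4 rose against KB1P (0.81, edgeR adjusted p = 0.0404), and Cdc6 against KB2P (0.87, edgeR adjusted p = 0.044). Without tumour 26.2, each comparison had 1 call, and without tumour 52 the KB1P comparison had 1. Without KB2P tumour 5, the KB2P comparison had 5, with Pole2 (1.06) and Pola1 (0.76) higher as well.

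Fen1 fell in both, at 0.7827, 1.881 and 2.227 CPM against 1.319 to 8.999 CPM in KB1P and KB2P adenocarcinomas, by 1.49 (edgeR adjusted p = 0.0128) and 1.30 (edgeR adjusted p = 0.0227) on the log2 scale. All 29 libraries of run 5625, from L1363P and KP tumours, held 0.4276 to 2.707 CPM. The medians of the other 8 runs were 2.357 to 5.353 CPM, with single libraries down to 1.319 CPM. No KB1P or KB2P tumour was in run 5625, so run and genotype cannot be told apart here. Raw counts of Fen1 were only 6 to 150 per library. Pold1 showed the same order without a call, with a median of 27.17 CPM in run 5625 and medians of 51.97 to 98.31 CPM in the other runs. The part of run, and of the antisense overlap of Fen1, in this difference was not tested.

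Tumours of the same genotype label and histology in different runs gave calls too. KB2P tumours of run 2749 had 2 members lower than those of run 2459, with 6.90% of 19230 genes called and a median of -0.15 against -0.0301: Pole2, at 13.35 ± 4.642 CPM (n = 12) against 27.91 ± 22.28 CPM (n = 9), by 1.07 on the log2 scale (edgeR adjusted p = 0.0129), and Mcm6, at 169.9 ± 62.68 CPM against 280.9 ± 82.64 CPM (-0.73, edgeR adjusted p = 0.034). The count of 2 of 40 is near the share of all genes and is not a result about the members. Without KB2P tumour 5 of run 2459, whose Pole2 was at 81.35 CPM, edgeR called 0 of 40, with 10 members at an unadjusted p under 0.05. The Pole2 value rested on that tumour and was -0.67 without it (edgeR adjusted p = 0.113). Mcm6 hardly moved, from -0.73 to -0.70, and narrowly missed the threshold (edgeR adjusted p = 0.0551). Tumours titled KB1PM had 1 member lower than those titled KB1P, with 0.887% of all genes called and a median of -0.162 against 0.0133. The titles share no run and the meaning of the M is not given, so title and run cannot be told apart here. Pcna was at 54.36 to 91.73 CPM (median 71.64) in the 10 KB1PM and 69.27 to 187.7 CPM (median 107.0) in the 11 KB1P tumours, overlapping, with a log2 fold change of -0.63 (SE 0.149, edgeR adjusted p = 0.0151). The remaining 39 members did not pass.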

How the data were processed

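The authors deposited read counts per gene (39438 symbols) and log2 normalized counts (37148 symbols) for 73 tumours, from strand-marking poly(A) libraries per the labels' protocols. Per the submitters' processing notes, the tools were cutadapt 2.10, featureCounts 2.0.0, STAR 2.7.3a and DESeq, with the build mm10. Counts were analysed in R 4.3.3 with edgeR 4.0.16: filterByExpr at a minimum count of 10, TMM scaling and quasi-likelihood F tests, with p-values adjusted over all genes tested (Benjamini-Hochberg, 0.05). Run 5625 had 1 fit of 29 libraries in 5 groups; a fit of 73 libraries in 8 groups served the KB1P and KB2P adenocarcinomas, with KB1P the equal-weight mean of both titles, and KB2P was split by run for runs 2749 and 2459. These fits assume that small groups vary like the others. Printed CPM are scaled over 73 libraries, and log2 CPM use a prior count of 2. No 2 libraries were identical (highest correlation 0.9833). Alternatives were DESeq2 1.42.0, limma 3.58.1 on the deposited log2 values, RLE scaling, no filter, the 2 groups alone and leaving tumours out. The fits were tested on simulated data. Positions are those of GENCODE for GRCm38, the assembly of mm10.

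Members, subsets and lists were chosen with earlier results of these data known. Named with values are, per subset, the member with the highest mean CPM and, per comparison, the called member with the smallest p; other called members have their fold change only, and members beyond this rule were singled out after their values were seen. Pold4, Kif11 and DNA copy-number data were not analysed here.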

Additional observations from a re-analysis of the deposited data

Results flagged for a closer look

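Each score and each named gene was examined in each group of 4 to 10 tumours for a tumour far from the rest. Of these 108 checks, 11 had one. Chance gives about 1 in 20 for independent checks. These checks reuse the same groups, and the scores contain the genes, so the count cannot be set against that rate. Of the 11, 7 concerned L1363P carcinosarcoma 18. Its score over all members was -0.893 with the next tumour at -0.24, its helicase score -1.03 (next -0.193), its polymerase score -0.749 (next -0.221) and its strand score -0.967 (next -0.206). In the same tumour Mcm4 was at 59.9 CPM (next 111.3), Mcm6 at 70.04 CPM (next 160.2) and Rrm1 at 116.9 CPM (next 188.5). KP adenocarcinoma 131.03A stood above its group in Orc2, at 75.62 CPM (next 44.58), and in Pold3, at 94.51 CPM (next 49.77). Among KB1PM adenocarcinomas, tumour 4 had Mcm6 at 431.8 CPM (next 245.0), and tumour 3 had Orc2 at 170.3 CPM (next 63.24).

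The effect of histology on Pold1 differed between L1363P and KP tumours by -2.09 on the log2 scale (edgeR adjusted p = 0.0131). It was negative in L1363P and positive in KP carcinosarcomas.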

How the results depend on the processing

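Counts of members called moved by over 1.5 times as follows; the cause was not tested. For L1363P against KP adenocarcinomas (3 calls) the 2 groups alone gave 0, no filter 1, DESeq2 15, leaving out carcinosarcomas 17 and 4 with KP 90.01A 0, and leaving out single tumours 1 to 14. For sarcomatoid tumours against adenocarcinomas (14) limma gave 9 and leaving out single tumours 5 to 15, with the log2 fold change of Rrm2 between -1.35 (without 7.2) and 0.0436 (without 26.2). For carcinosarcomas against adenocarcinomas (5) limma gave 3, the 2 groups alone 0 and leaving out single tumours 1 to 7. For sarcomatoid tumours against carcinosarcomas (1) DESeq2 gave 2, the 2 groups alone 3, leaving out 17, 4 and 90.01A 4, and leaving out 18, chosen after seeing the data, 2. For KP histology (0) DESeq2 gave 1. For the difference between the genotypes (1) DESeq2 gave 7, leaving out 17, 4 and 90.01A 0, and leaving out single tumours 0 to 6. For the epithelial share (0), leaving out 18 gave 1. For KB2P against KB1P (5) RLE scaling, no filter and limma each gave 3 and KB1P titles alone 1. Single tumours left out gave 1 to 2 for L1363P against KB1P (3) and against KB2P (3), and leaving out KB2P 5, also chosen after seeing the data, 5 for the latter. Limma gave 0 for KB1PM against KB1P (1) and 1 for run 2749 against run 2459 (2), where leaving out KB2P 5 gave 0.

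KB1P and KB2P titles share 5 tumour numbers, whose deviations correlated above 0.1 in 4 of 5 (-0.127 to 0.419). Tumours of unlike numbers were not correlated for reference, so these values do not decide whether the numbers mark pairs. The numbers were not taken as pairs, and a replicate block on them gave 0 calls. Of the alternative values for single named genes, 161 kept direction and side of the threshold, 66 lost the call and 1 reversed. With 3 adenocarcinomas as reference, precision is limited by their number.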

Other observations

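In some tumours with a very high level of 1 member, several but not all genes beside it on the chromosome were high as well; these tumours were chosen after their values were seen, and copy number was not analysed here. In KB1PM adenocarcinoma 3, Orc2 was at 170.3 CPM, 4.15 times the median of the other 9, and its neighbours Bzw1 (939.1 CPM, 3.89 times), Clk1 (636.2 CPM, 3.06 times), Ppil3 (65.49 CPM, 4.07 times) and Nif3l1 (113.9 CPM, 4.37 times) also exceeded all others of the group, while Fam126b, next to Orc2 on the other side, was at 1.36 times with 2 others above. Nif3l1 overlaps Orc2 on the opposite strand. In KB2P adenocarcinoma 21, Orc2 was at 2.09 times with 2 others above, Clk1 at 5.76 times and Casp8 at 0.874 times. In KB2P adenocarcinoma 5, Pole2 was at 81.35 CPM, 5.27 times the median of the other 22, with Lrr1 at 5.81 times, Dnaaf2 at 3.61 times, Rpl36al at 3.5 times and Arf6 at 3.03 times, each above all others. In KB1PM adenocarcinoma 9, Pole2 was at 45.75 CPM (3.22 times) with Dnaaf2 at 4.63 times and Arf6 at 1.24 times. KB2P adenocarcinomas 26 and 24 had Mcm3 at 881.6 and 609.8 CPM, 4.45 and 3.08 times the median of the others, with Tram2 at 2.97 and 3.16 times, but Paqr8, the nearest measured gene on that side, at 1.35 and 1.62 times, and Jph1, Pi15 and Crispld1 on the other side at 0.132 to 0.373 times.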
